A study of Mus musculus with 11 samples.

Results

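The genes described here encode the elastin core of elastic fibres and the microfibrils around it, in sorted mouse bone marrow stromal cells. They are the 10 genes Eln, Fbn1, Fbn2, Fbln1, Fbln2, Fbln5, Fbln7, Mfap2, Mfap4 and Emilin1. They were taken by gene name from each of 3 deposited tables of counts per gene, and all 10 were found among the 16507, 14267 and 14910 genes listed in the age, Sca1 and knockout tables. All 10 also passed the filter on low counts in every table.

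PolyA RNA was sequenced from cells isolated from marrow by flow cytometry. Adult wild-type cells were sorted as PDGFRa+CD51+ (3 samples). Perinatal wild-type cells, called postnatal in the labels, were sorted as PDGFRa+Sca1- (2 samples, numbered 2 and 3) or as PDGFRa+Sca1+ (3 samples). Cells with a deleted Igf1r, the receptor gene for insulin-like growth factors, were sorted as PDGFRa+Sca1+ (3 samples), and the series text places them among the perinatal cells. The knockout samples were Cre-positive and the wild-type PDGFRa+Sca1+ samples Cre-negative by their titles, so Cre and the deletion cannot be told apart. The labels name no promoter for Cre and do not say whether samples came from single or pooled animals, so the p-values reflect only how these samples vary, and that variation may be technical. The comparisons asked how stromal cells differ with age, with the Sca1 gate and with loss of Igf1r.

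Elastic fibres are laid down mostly in development. Cells first build microfibrils, which are strings of fibrillin decorated with microfibril-associated glycoproteins, and tropoelastin, the product of Eln, is then deposited on them with the help of fibulins and cross-linked by lysyl oxidases. Fibrillin microfibrils also hold latent TGF-beta in the matrix. In bone and marrow, fibrillins are known as part of the matrix that bone-forming and stromal cells make, and fibrillin-2 is mainly a fibrillin of developing tissue.

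Total counts per library ran from 13412316 to 23782217, and a count of 3, taken as the floor of detection per library, equalled 0.126 to 0.224 counts scaled to a common library total (CPM). This floor covers counting error only. Libraries 2 and 3 of the wild-type group labelled Sca1-positive had equal counts for 97.95% to 100% of the genes shared by any 2 of the 3 tables and were taken as the same libraries. Library 1 of that group differed between the age and knockout tables, with equal counts for 1.72% of 14843 shared genes, although the labels give both to 1 sample. In the knockout table its column header carries a number other than 1, so whether both came from 1 sample is not known. Ly6a, the gene of Sca1, ran against the gate: it stood at 666 and 659 CPM in the libraries labelled Sca1-negative, against 13.8 and 10.03 CPM in the libraries labelled Sca1-positive 2 and 3. In the knockout table Ly6a was at 768, 682 and 930.3 CPM in knockout libraries 1, 2 and 3, against 425, 13.8 and 10.04 CPM in control libraries 1, 2 and 3. It is not listed in the age table. Whether gate labels or columns were exchanged was not tested, and if they were, every direction between the perinatal gates below would turn. Libraries 2 and 3 labelled Sca1-positive are also references in the age table and controls in the knockout table. An exchange limited to them would make the age reference a mix of gates. Between the knockouts and control libraries 2 and 3, loss of Igf1r cannot be told apart from the difference in Ly6a. The deleted gene, Igf1r, had 182, 80 and 77 counts in the knockout libraries, against 599, 548 and 444 counts in the controls, a log2 fold change of -2.55 (SE 0.34, edgeR adjusted p = 0.0816). Pdgfra was at 13.4 to 15.2 CPM in the adult libraries, against 235 to 279 CPM in perinatal libraries 1, 2 and 3 of that table, while Itgav, the gene of CD51, was at 271 to 305 CPM in adult libraries, against 47.6 to 51.9 CPM in perinatal libraries. Of the 2 genes of the adult gate, Pdgfra was thus low and Itgav high in the adult libraries.

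Promoter windows are shown for 4 of the genes because the results below set them apart: Fbn1 and Fbln2, which DESeq2 called higher in the libraries labelled Sca1-negative than in those labelled Sca1-positive, and Fbln7 and Emilin1, which it called lower both there and in the knockouts. Each window covers 250 bases before to 50 bases after a gene start, from RefSeq on build GRCm38.p6, written along the gene's strand. Windows were given for 7 of the 10 genes. Capitals mark letters of the 3 motifs searched on both strands, which were the GC box GGGCGG, the TATA box TATAAA and the TEAD site CATTCC.
Fbn1, chr2:125506389-125506688, minus strand: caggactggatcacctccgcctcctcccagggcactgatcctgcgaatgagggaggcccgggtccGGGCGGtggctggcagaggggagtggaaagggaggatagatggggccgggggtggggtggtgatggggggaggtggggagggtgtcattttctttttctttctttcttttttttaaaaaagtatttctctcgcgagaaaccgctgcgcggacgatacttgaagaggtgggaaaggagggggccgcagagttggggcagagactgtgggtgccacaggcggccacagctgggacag
Fbln2, chr6:91212514-91212813, plus strand: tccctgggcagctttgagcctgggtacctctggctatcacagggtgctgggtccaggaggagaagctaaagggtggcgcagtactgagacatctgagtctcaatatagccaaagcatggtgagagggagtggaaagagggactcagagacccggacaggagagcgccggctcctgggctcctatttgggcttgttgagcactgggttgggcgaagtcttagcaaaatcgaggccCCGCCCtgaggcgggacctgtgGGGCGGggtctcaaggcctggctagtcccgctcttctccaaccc
Fbln7, chr2:128863682-128863981, plus strand: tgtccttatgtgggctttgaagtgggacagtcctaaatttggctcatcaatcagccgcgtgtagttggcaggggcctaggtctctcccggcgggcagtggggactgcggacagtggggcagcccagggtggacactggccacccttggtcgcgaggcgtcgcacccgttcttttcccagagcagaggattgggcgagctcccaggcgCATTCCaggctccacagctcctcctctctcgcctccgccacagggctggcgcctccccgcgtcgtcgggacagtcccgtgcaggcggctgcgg
Emilin1, chr5:30913536-30913835, plus strand: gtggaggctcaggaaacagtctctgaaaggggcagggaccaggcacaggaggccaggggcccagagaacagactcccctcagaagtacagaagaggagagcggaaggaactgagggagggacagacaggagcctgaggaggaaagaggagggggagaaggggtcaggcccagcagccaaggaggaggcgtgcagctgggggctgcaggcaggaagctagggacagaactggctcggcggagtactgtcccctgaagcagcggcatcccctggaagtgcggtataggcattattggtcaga

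The Fbn1 window held 1 GC box, 185 bases before the start, and the Fbln2 window held 2, 1 of them in reverse complement. The Fbln7 window held 1 TEAD site, 43 bases before the start. The Emilin1 window held none of the 3 motifs. Of the windows not printed, 1 each of Fbln1, Fbln5 and Mfap2 held 2 GC boxes, and another Mfap2 window held 1 TEAD site. Fbln1, Fbln5 and Mfap2 had negative log2 fold changes in the Sca1 and knockout comparisons, so GC boxes were not limited to genes with positive ones. Of all 32851 windows, 35.7% held a GC box, 13.6% a TATA box and 14.7% a TEAD site. These matches describe letters in the window only.

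In adult cells Eln and Mfap4 were under the floor, Fbln7 was close to it, and Fbn2, Fbln1 and Mfap2 stood at a few CPM, while Fbn1, Fbln2, Fbln5 and Emilin1 remained well above it. The adult libraries (PDGFRa+CD51+) were set against the perinatal libraries labelled PDGFRa+Sca1+, and age cannot be told apart from the gate here. With edgeR, 9 of the 10 genes fell in adult cells and none rose, and in all 9 the adult and perinatal libraries did not overlap. Across all 13757 genes tested, 39.7% were called lower and 37.4% higher, and 81.2% did not overlap between groups, so most genes of the table also differed. With DESeq2 the same 9 fell and Fbln2 rose, beside 37.8% of all genes called higher and 39.9% called lower. The median log2 fold change was -7.29 over the 10 genes and -0.059 over all genes tested. Together the 10 genes took 0.222%, 0.128% and 0.214% of all counts in adult libraries 1, 2 and 3, against 0.811%, 0.926% and 1.04% in perinatal libraries 1, 2 and 3. In bulk samples, fewer cells of a type and less RNA per cell cannot be told apart.

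Eln, which encodes tropoelastin, the soluble monomer of elastin (ENSMUSG00000029675, chromosome 5, 134702593 to 134747323, minus strand, mm10), had 0, 1 and 0 counts in adult libraries 1, 2 and 3, against 854, 1873 and 2121 counts in perinatal libraries 1, 2 and 3. All 3 adult counts were under the floor. Scaled to library size, the summed adult count was 0.000202 of the perinatal one, with a 95% interval of 5.11e-06 to 0.00112 that covers counting error only. Eln was called lower (edgeR adjusted p = 4.44e-06).

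Mfap4, a fibrinogen-domain protein that binds tropoelastin and fibrillin (chromosome 11, 61485431 to 61488900, plus strand), had 0, 1 and 1 counts in adult libraries, against 13330, 28278 and 25906 counts in perinatal libraries. The adult sum was 2.9e-05 of the perinatal sum, with a 95% counting interval of 3.51e-06 to 0.000105 (edgeR adjusted p = 9.31e-07). Mfap2, which encodes the microfibril-associated glycoprotein MAGP-1 (chromosome 4, 141010418 to 141015984, plus strand), stood at 3.65, 6.01 and 6.19 CPM in adult libraries, against 2213, 3979 and 4250.0 CPM in perinatal libraries. Its log2 fold change was -9.64 (SE 0.43, edgeR adjusted p = 1.63e-06). Both genes were abundant in every perinatal library, while every adult library held Mfap4 under the floor and Mfap2 at a few CPM.

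Both fibrillins, the proteins of the microfibril backbone, fell in adult cells. Fbn2 (chromosome 18, 58008623 to 58210487, minus strand) had 5.85, 2.83 and 4.25 CPM in adult libraries, against 628, 834 and 926 CPM in perinatal libraries, a log2 fold change of -7.79 (SE 0.36, edgeR adjusted p = 1.88e-06). Fbn1 (chromosome 2, 125300594 to 125507993, minus strand) was still at 464, 274 and 472 CPM in adult libraries, against 2679.8, 813 and 1076 CPM in perinatal libraries 1, 2 and 3. Its log2 fold change was -2.18 (SE 0.48, edgeR adjusted p = 0.00369). Perinatal library 1 had the highest Fbn1 and the lowest Fbn2 of its group.

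The fibulins are secreted proteins that bridge elastin, microfibrils and basement membranes. In adult cells Fbln1 stood at a few CPM and Fbln7 was close to the floor, while Fbln5 fell and Fbln2 was not lower. Fbln1 (chromosome 15, 85205949 to 85286535, plus strand) stood at 3.47, 1.59 and 3.88 CPM in adult libraries, against 310.3, 441 and 529 CPM in perinatal libraries, a log2 fold change of -7.44 (SE 0.42, edgeR adjusted p = 4.21e-06). Fbln7, a fibulin first described in developing teeth (chromosome 2, 128862981 to 128897034, plus strand), had 3, 7 and 9 counts in adult libraries, against 317, 926 and 1012 counts in perinatal libraries (log2 fold change -7.15, SE 0.62, edgeR adjusted p = 3.1e-05). Fbln5, which binds tropoelastin and is needed for elastic fibre assembly in mice (chromosome 12, 101746565 to 101819055, minus strand), was at 109, 145 and 165 CPM in adult libraries, against 279, 455 and 499.6 CPM in perinatal libraries (log2 fold change -1.83, SE 0.26, edgeR adjusted p = 4.1e-04).

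Fbln2, which binds fibrillin-1 and other matrix proteins (chromosome 6, 91212455 to 91272540, plus strand), was the exception. It stood at 1518, 750.5 and 1359.8 CPM in adult libraries, against 792, 515 and 593 CPM in perinatal libraries. Adult library 2 lay below perinatal library 1, so the groups overlapped. The log2 fold change was 0.67 (SE 0.30) and did not pass the edgeR test (adjusted p = 0.0733), while it passed with DESeq2 (adjusted p = 0.0385), with the replicate number as a block (edgeR adjusted p = 0.0207), without adult library 2 (edgeR adjusted p = 0.0102) and without perinatal library 1 (edgeR adjusted p = 0.0238). Emilin1, an elastin-microfibril interface glycoprotein (chromosome 5, 30913402 to 30921277, plus strand), stood at 112, 98.1 and 124 CPM in adult libraries, against 227, 433 and 514 CPM in perinatal libraries. Its log2 fold change was -2.08 (SE 0.30, edgeR adjusted p = 4.44e-04). In the plot of CPM by library, the adult points of Fbn1, Fbln5 and Emilin1 lie within about an order of magnitude of the perinatal ones, while those of Eln, Fbn2, Fbln1, Fbln7, Mfap2 and Mfap4 do not.

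**Figure D1:**
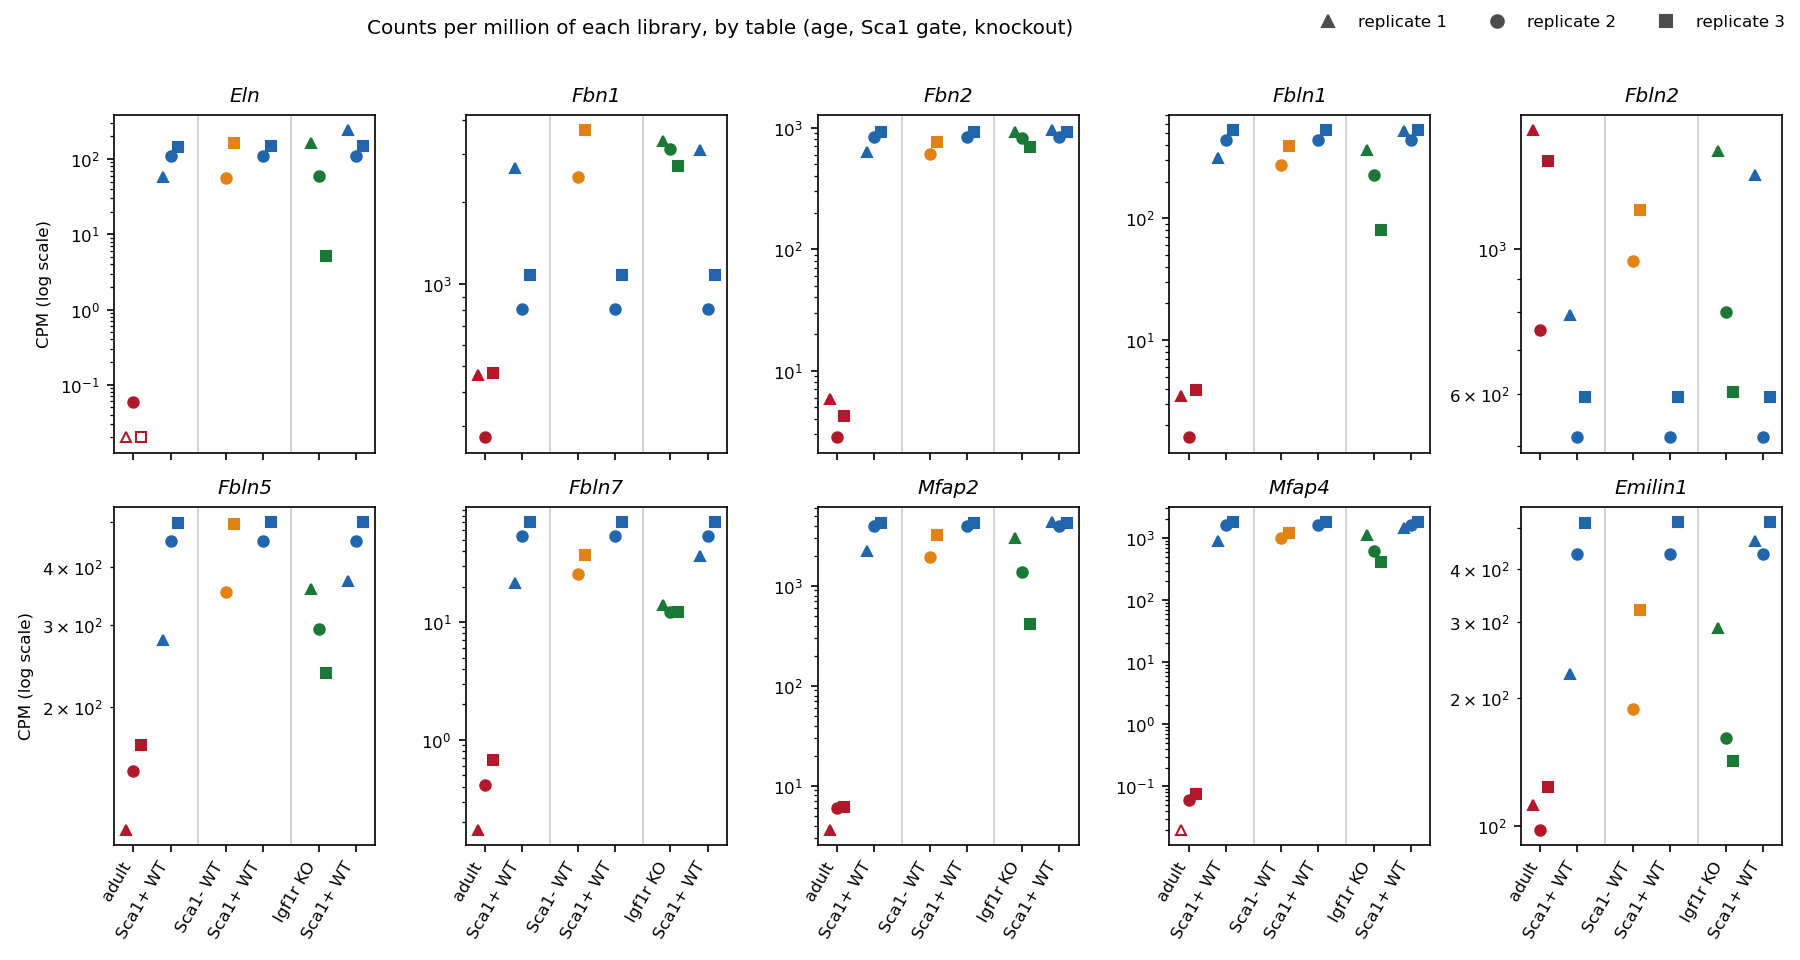
CPM (log scale, own range for each gene) of the 10 elastic fibre and microfibril genes in every library, in the age, Sca1 and knockout tables from left to right within a panel; groups are named by their labels, marker shapes give the replicate, and open markers at the bottom are libraries with 0 counts. In adult libraries Eln had 0, 1 and 0 counts, while Fbln2 was at 1518, 750.5 and 1359.8 CPM, and the knockout libraries spread over a wide range for Eln, at 165, 60.2 and 5.09 CPM.

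Levels per transcript length were compared with the authors' TPM values, which are scaled by transcript length. In adult libraries Fbln2 came first at 425 ± 158 TPM (SD, n = 3), and its lowest library, at 247 TPM, was above every adult library of the other 9 genes. Fbn1 (70.2 ± 22.4 TPM), Emilin1 (53.4 ± 9.44 TPM) and Fbln5 (39.2 ± 8.70 TPM) followed with ranges that overlapped from each gene to the next. Mfap2 stood apart below them at 8.95 ± 2.07 TPM, and Fbln1 (1.70 ± 0.84 TPM), Fbn2 (0.61 ± 0.23 TPM) and Fbln7 (0.23 ± 0.14 TPM) again overlapped from each gene to the next. Mfap4, at 0 to 0.0731 TPM, and Eln, at 0 to 0.0316 TPM, were last, and their ranges overlapped.

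The perinatal order was a different one. Among the perinatal libraries of the age table, Mfap2 led at 5774 ± 2012 TPM (SD, n = 3), with all 3 libraries above those of Mfap4 at 1217 ± 475 TPM. Mfap4 in turn lay above Emilin1 (446 ± 162 TPM) and Fbln2 (431 ± 117 TPM) in every library, and these 2 overlapped. From Fbln1 (226 ± 72.0 TPM) through Fbn1 (181 ± 106 TPM), Fbn2 (97.1 ± 24.2 TPM), Fbln5 (86.6 ± 30.7 TPM) and Eln (70.9 ± 31.0 TPM), neighbours in the order overlapped. Fbln7 was last at 22.4 ± 12.5 TPM and lay below the lowest Eln library. The libraries labelled Sca1-negative, in their own table, had Mfap2 (4274 ± 1517 TPM), Mfap4 (890.3 ± 156 TPM) and Fbln2 (744 ± 65.1 TPM) in the first places and Fbn1 (367 ± 130 TPM) in the fourth (SD, n = 2).

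**Figure D2:**
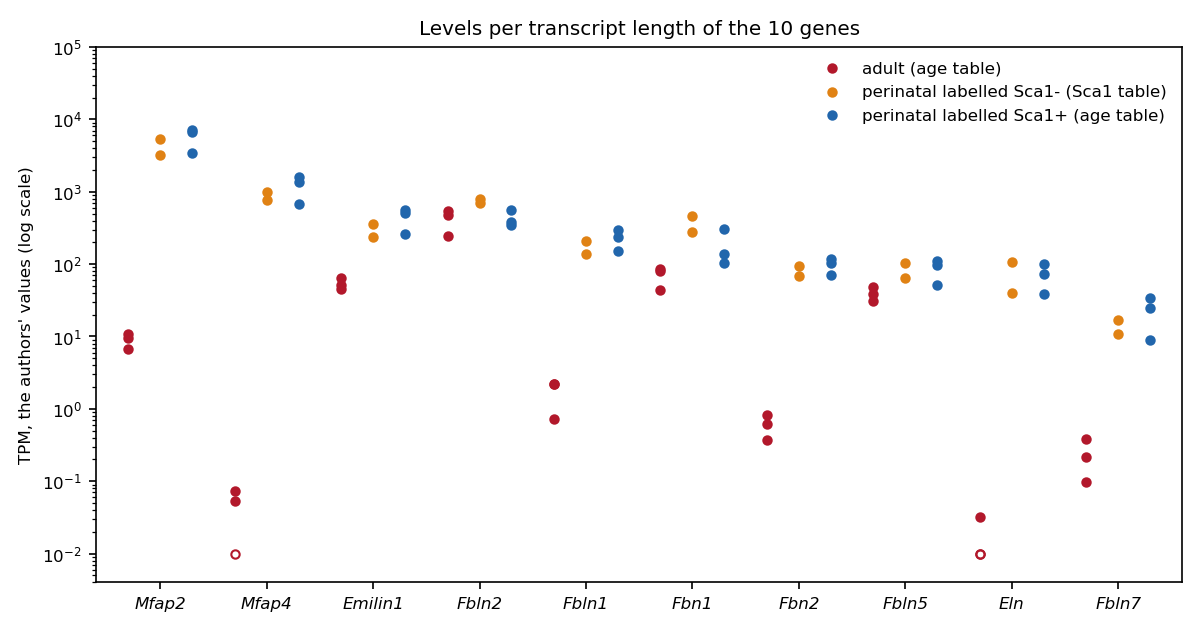
The authors' TPM values (log scale) of the 10 genes, each point 1 library, with adult libraries (age table) left, libraries labelled Sca1-negative (Sca1 table) in the middle and libraries labelled Sca1-positive (age table) right; open markers at the bottom are libraries at 0. Mfap2 averages 8.95 TPM in the adult libraries and 5774 TPM in the labelled Sca1-positive ones, whereas Fbln2 averages 425 TPM in the adult libraries and 431 TPM in the labelled Sca1-positive ones. In CPM, Fbln2 ran from 750.5 to 1518 in adult libraries and from 515 to 792 in labelled Sca1-positive ones. The higher adult level of Fbln2 in CPM was thus not seen in TPM. Emilin1 ran from 98.1 to 124 CPM in adult libraries and from 227 to 514 CPM in labelled Sca1-positive ones. In TPM its ranges lay further apart on the log scale, at 44.9 to 63.6 and 262 to 566. Those of Fbn1 lay closer in TPM, at 44.5 to 85.9 and 102 to 302, than in CPM, at 274 to 472 and 813 to 2679.8. The relation of TPM to CPM thus differed by gene between these groups, which limits TPM comparisons between them.

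Genes that act on the same fibre were followed in 6 lists with 40 genes, of which 39 were listed and 37 tested in the age table. In adult cells 21 of the 37 fell and 9 rose, and 7 did not pass the test. Across all 13757 genes tested, 39.7% were called lower and 37.4% higher, and these shares stand beside each list below. Among relatives of the fibrillins, fibulins and emilins, 8 of 10 tested fell and none rose. They included Ltbp4, a latent TGF-beta binding protein that assists elastic fibre assembly, at a mean of 2.07 CPM in adult libraries and 621 CPM in perinatal ones (log2 fold change -8.24, SE 0.45, edgeR adjusted p = 3.71e-06). Ltbp1 (-4.06), Ltbp3 (-2.69) and Emilin3 (-9.98) also fell on the log2 scale. These means, like the group means below, are of CPM scaled with TMM (trimmed mean of M-values) factors.

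Of the 5 lysyl oxidases, which cross-link the fibres, 2 rose and 1 fell in adult cells, beside 37.4% and 39.7% of all genes. Lox, the lysyl oxidase of collagen and elastin, rose in adult cells, at a mean of 2158 CPM in adult libraries and 430.1 CPM in perinatal ones (log2 fold change 2.33, SE 0.23, edgeR adjusted p = 5.91e-05). Loxl2 also rose, at 628 CPM in adult libraries and 149 CPM in perinatal ones (log2 fold change 2.07, SE 0.17, edgeR adjusted p = 2.25e-05). Loxl1, which in mice maintains elastic fibres, fell to 86.5 CPM in adult libraries, against 630.1 CPM in perinatal ones (log2 fold change -2.86, SE 0.25, edgeR adjusted p = 3.36e-05). The other 2 lysyl oxidases did not pass the test.

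The ADAMTS-like and ADAMTS proteins, several of which bind fibrillin-1, fell in 4 of 8 cases and rose in 2. Of all genes tested, 39.7% were called lower and 37.4% higher, so the counts in these lists are not particular to fibre genes. Adamts17 (log2 fold change -8.07), Adamtsl4 (-2.50) and Adamtsl3 (-1.91) fell, and Adamtsl2 had no count in any adult library and a mean of 14.7 CPM in perinatal ones. Of 6 elastin-degrading proteases tested, 3 rose and 3 fell: the cathepsin gene Ctss (11.10) and the macrophage elastase gene Mmp12 (5.18) rose, and Mmp2 (-3.90) fell on the log2 scale. Ctsk, the cathepsin K gene, fell to a mean of 56.6 CPM in adult libraries, against 454 CPM in perinatal ones. Tgfb1 rose (8.18), and Tgfb2 (-2.18) and Tgfb3 (-1.32) fell. Of 5 scaffold genes, Dcn (-9.84), Bgn (-2.50) and Vcan (-2.11) fell and Fn1, the fibronectin gene on which fibrillin assembly depends, rose (1.42).

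Markers of other cells moved with these differences. Of all 13757 genes tested, 81.2% did not overlap between adult and perinatal libraries. All 8 macrophage markers were higher in every adult library than in every perinatal one, and their sum was 19886 to 22436 CPM in adult libraries, against 22.7 to 27.7 CPM in perinatal libraries. Markers of mural and smooth muscle cells, which are known makers of elastic fibres, went both ways. Acta2, Tagln and Cnn1 were higher in every adult library, with Acta2 at a mean of 1124 CPM in adult libraries and 134 CPM in perinatal ones. Rgs5, Mcam and Des were lower in every adult library, with Rgs5 at a mean of 0.14 CPM in adult libraries and 22.9 CPM in perinatal ones. The 8 mural markers summed to 1469 to 2403 CPM in adult libraries and 183 to 299.9 CPM in perinatal libraries. The 5 marrow stroma markers summed to 572 to 881 CPM in adult libraries and 575 to 968 CPM in perinatal libraries, but Pdgfra (log2 fold change -4.47) and Lepr (-6.52) fell and Itgav (2.27) rose in adult cells. Tendon markers summed to 3.42 to 5.37 CPM in adult libraries and 2072 to 3734 CPM in perinatal libraries, with Thbs4 at 0 in the adult ones. Cartilage markers summed to 51.4 to 86.2 CPM in adult libraries, with Cnmd and Col9a1 at 0, and to 416 to 6672 CPM in perinatal libraries. Bone markers summed to 1390.1 to 1788 CPM in adult libraries and 334 to 6173 CPM in perinatal libraries, and 6 of the 8 were lower in every adult library. The adult sum was mostly Spp1, at a mean of 1421.5 CPM, while Bglap, the osteocalcin gene, was at 0.591 CPM in adult libraries and 375 CPM in perinatal ones. Endothelial markers summed to 131 to 217 CPM and B lineage markers to 99.5 to 104 CPM in adult libraries, against 31.7 to 67.1 CPM and 1.42 to 4.29 CPM in perinatal libraries. Erythroid markers summed to at most 0.0589 CPM in adult libraries and to 421 to 941 CPM in perinatal ones. The 3 listed fibroblast progenitor markers summed to 0.671 to 2.03 CPM in adult libraries and 406 to 1039 CPM in perinatal libraries. The part of any of these cells in the elastic fibre values was not tested.

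Between the perinatal gates, Fbn1 rose in the libraries labelled Sca1-negative, Fbln2 had a positive log2 fold change that missed the threshold, and the other 8 genes had negative ones that missed it too. Of the 10 genes, 1 rose in the labelled Sca1-negative libraries and none fell, where 1.63% and 2.79% of the 13529 genes tested were called higher and lower. In 8 of the 10 the 2 groups did not overlap, as did 50.3% of all genes tested. The median log2 fold change was -0.42 over the 10 genes and 0.011 over all genes.

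Fbn1 was the called gene. It stood at 2465 and 3675 CPM in labelled Sca1-negative libraries 2 and 3, against 813 and 1077 CPM in labelled Sca1-positive libraries 2 and 3, a log2 fold change of 1.73 (SE 0.27, edgeR adjusted p = 0.0221). Without Sca1-positive library 2 its log2 fold change was 1.51 and the call was lost (edgeR adjusted p = 0.0731). Fbn2 ran the other way, at 606 and 764 CPM in labelled Sca1-negative libraries, against 834 and 926 CPM in labelled Sca1-positive libraries (log2 fold change -0.33, SE 0.20, edgeR adjusted p = 0.446).

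Of the fibulins, Fbln2 stood at 957 and 1146 CPM in labelled Sca1-negative libraries, against 515 and 593 CPM in labelled Sca1-positive libraries (log2 fold change 0.95, SE 0.20, edgeR adjusted p = 0.055). Fbln7 was at 25.7 and 37.0 CPM in labelled Sca1-negative libraries, against 53.5 and 70.0 CPM in labelled Sca1-positive libraries (log2 fold change -0.95, SE 0.25, edgeR adjusted p = 0.0941). Neither passed the edgeR test, though in both the groups did not overlap. Fbln1, at 276 and 391 CPM in labelled Sca1-negative libraries against 441 and 529 CPM in labelled Sca1-positive libraries, had a log2 fold change of -0.51 (SE 0.23, edgeR adjusted p = 0.303). Fbln5, at 354 and 496 CPM in labelled Sca1-negative libraries against 455 and 499.7 CPM in labelled Sca1-positive libraries, overlapped between the groups (log2 fold change -0.14, SE 0.22, edgeR adjusted p = 0.785).

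Eln varied more within the labelled Sca1-negative group than between groups, at 56.3 and 163 CPM there, against 108 and 147 CPM in labelled Sca1-positive libraries (log2 fold change -0.20, SE 0.46, edgeR adjusted p = 0.862). The microfibril-associated genes and Emilin1 were lower in both labelled Sca1-negative libraries, without passing the test. Mfap2 had 1928 and 3242 CPM in labelled Sca1-negative libraries, against 3980.5 and 4251 CPM in labelled Sca1-positive libraries (log2 fold change -0.65, SE 0.27, edgeR adjusted p = 0.27). Mfap4 had 1008 and 1197 CPM in labelled Sca1-negative libraries, against 1633 and 1792 CPM in labelled Sca1-positive libraries (log2 fold change -0.60, SE 0.20, edgeR adjusted p = 0.161). Emilin1 had 188 and 321 CPM in labelled Sca1-negative libraries, against 434 and 514 CPM in labelled Sca1-positive libraries (log2 fold change -0.87, SE 0.28, edgeR adjusted p = 0.156). With DESeq2, 4 of the 10 genes were called, Fbn1 (adjusted p = 4.2e-09) and Fbln2 (7.9e-04) higher and Fbln7 (0.0151) and Emilin1 (0.0246) lower, beside 3.16% of all genes called higher and 4.42% called lower.

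Of the related genes, 4 of 37 tested rose and 5 fell in the labelled Sca1-negative libraries. Of all genes tested, 1.63% were called higher and 2.79% lower. Mfap5, which encodes MAGP-2, the second microfibril-associated glycoprotein, rose to a mean of 4140 CPM in labelled Sca1-negative libraries, against 835 CPM in labelled Sca1-positive libraries (log2 fold change 2.31, SE 0.27, edgeR adjusted p = 0.00824). Efemp1, which encodes fibulin-3, rose to 81.5 CPM in labelled Sca1-negative libraries, against 11.7 CPM in labelled Sca1-positive libraries (log2 fold change 2.80, SE 0.33, edgeR adjusted p = 0.00824). Adamtsl5 (1.57) and the proteoglycan gene Vcan (1.07) also rose on the log2 scale. Emilin3 (-1.77), Ltbp2 (-1.16), Thsd4 (-2.23), Adamts17 (-1.30) and Mmp9 (-4.05) fell. None of the 5 lysyl oxidases and none of the 3 TGF-beta genes passed the test, with Loxl1 at a log2 fold change of 0.32 and Lox at -0.37.

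The gates also differed in markers of other cells. The 8 cartilage markers summed to 332 to 436 CPM in labelled Sca1-negative libraries and to 5605 to 6674 CPM in labelled Sca1-positive libraries, and the 8 bone markers to 102 to 152 CPM in labelled Sca1-negative libraries and to 5751 to 6175 CPM in labelled Sca1-positive libraries. All 8 cartilage and all 8 bone markers were lower in both labelled Sca1-negative libraries. Of all genes tested, 50.3% did not overlap between the gates. Tendon markers summed to 1723 to 2391 CPM in labelled Sca1-negative libraries and 3540.4 to 3735 CPM in labelled Sca1-positive libraries, and mural markers to 185 to 216 CPM in labelled Sca1-negative libraries and 257 to 299.9 CPM in labelled Sca1-positive libraries. The 5 fibroblast progenitor markers, Ly6a among them, were all higher, with sums of 1913 to 2569 CPM in labelled Sca1-negative libraries and 433 to 543 CPM in labelled Sca1-positive libraries. Macrophage, endothelial and B lineage sums stayed at or under 67.1 CPM in each of the 4 libraries, and erythroid markers summed to 177 to 521 CPM in labelled Sca1-negative and 715 to 941 CPM in labelled Sca1-positive libraries. The part of these cells in the Fbn1 and Mfap5 values was not tested.

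**Figure D3:**
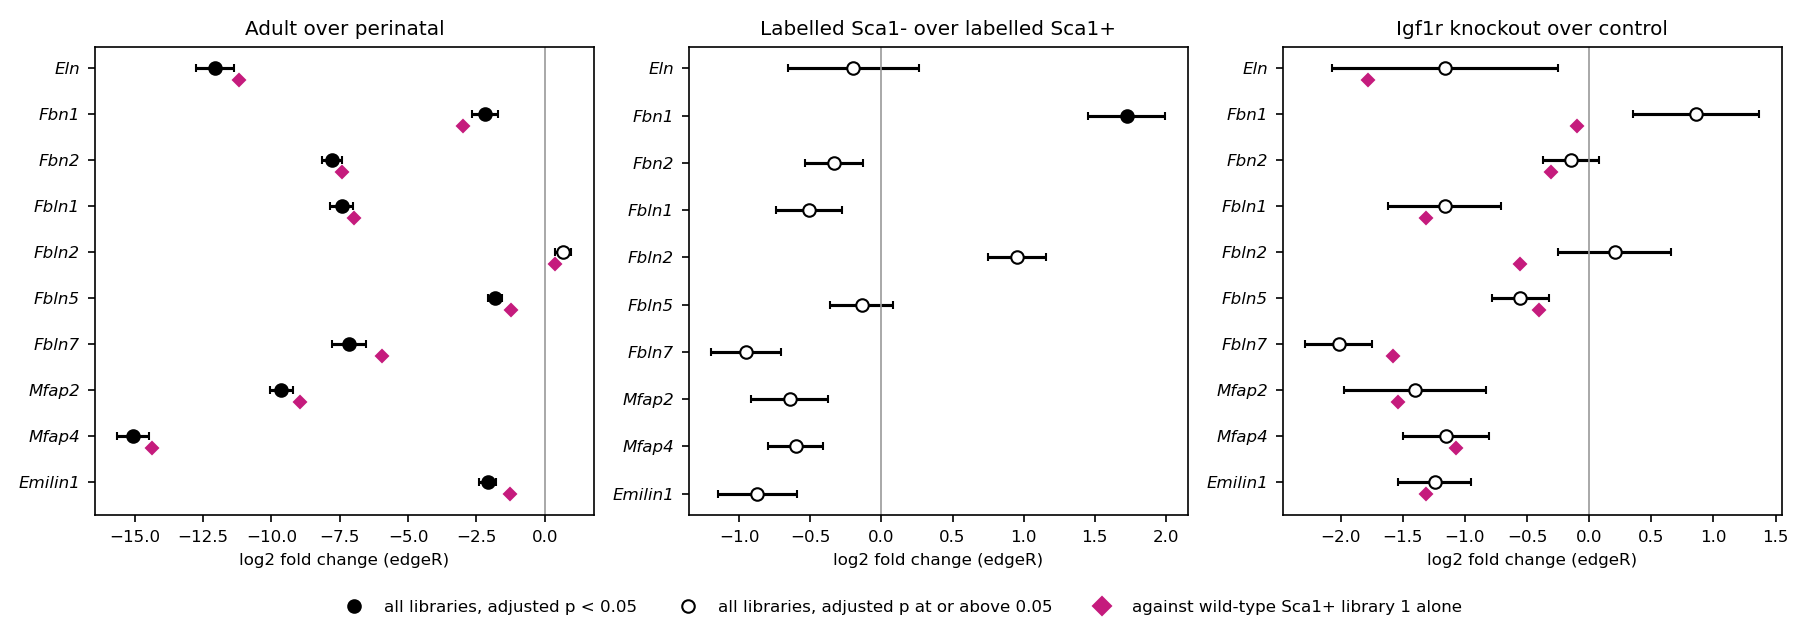
Fitted log2 fold changes (edgeR) of the 10 genes in the 3 comparisons, as circles with bars of 1 standard error, filled where the adjusted p was under 0.05; diamonds give the log2 fold change against wild-type Sca1-positive library 1 alone. Filled circles mark 9 genes in the adult comparison, Fbn1 alone in the Sca1 comparison and no gene in the knockout comparison, where the diamond of Fbn1 lies at -0.095 and its circle at 0.86.

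After deletion of Igf1r none of the 10 genes passed the test. Only 0.0368% of the 13590 genes tested did, which were 5 genes, all lower, while 1647 genes were higher and 1316 lower at an unadjusted edgeR p under 0.05. With DESeq2, 3.49% of all genes were called higher and 3.63% lower. For 6 of the 10 genes, all lower, the knockout and control libraries did not overlap, as was the case for 29% of all genes tested. The median log2 fold change was -1.16 over the 10 genes and -0.025 over all genes tested.

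Fbln7 had the lowest edgeR adjusted p of the 10 genes. It stood at 14.1, 12.1 and 12.3 CPM in knockout libraries 1, 2 and 3, against 36.6, 53.5 and 70.1 CPM in control libraries 1, 2 and 3. The log2 fold change was -2.02 (SE 0.27, edgeR adjusted p = 0.0803). DESeq2 called it (adjusted p = 1.87e-08), and the value against control library 1 alone was -1.58.

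Emilin1 was at 290.2, 161 and 142 CPM in knockout libraries, against 464, 434 and 514 CPM in control libraries (log2 fold change -1.24, SE 0.29, edgeR adjusted p = 0.176). Mfap4 was at 1139.9, 614 and 418 CPM in knockout libraries, against 1428, 1633 and 1793 CPM in control libraries (log2 fold change -1.15, SE 0.34, edgeR adjusted p = 0.179). DESeq2 called both lower, with adjusted p values of 0.00467 for Emilin1 and 0.0272 for Mfap4. In each, knockout library 1 was the closest to the controls.

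The same spread among knockouts was wider in Eln, Mfap2 and Fbln1. Eln stood at 165, 60.2 and 5.09 CPM in knockout libraries 1, 2 and 3, against 242, 108 and 147 CPM in control libraries, so that knockout library 1 lay among the controls and library 3 far below them. The Eln log2 fold change was -1.16 (SE 0.91, edgeR adjusted p = 0.428). Mfap2 was at 3020.4, 1377 and 411 CPM in knockout libraries, against 4325, 3982 and 4254 CPM in control libraries (log2 fold change -1.40, SE 0.57, edgeR adjusted p = 0.216). Fbln1 was at 363, 225 and 80.4 CPM in knockout libraries, against 518, 441 and 529.6 CPM in control libraries (log2 fold change -1.16, SE 0.45, edgeR adjusted p = 0.203). Without knockout library 1, 5 of the 10 genes were called lower with edgeR, namely Fbln1 (adjusted p = 0.0371), Mfap2 (0.0287), Fbln7 (0.0228), Mfap4 (0.0228) and Emilin1 (0.0228). In that setting 3003 genes of the whole table were called, against 5 of 13590 with every library, so calls were not limited to these genes. How many of the 3003 were lower is not given here.

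Fbln5 was at 358, 294 and 236 CPM in knockout libraries, against 373, 456 and 500.02 CPM in control libraries, with no overlap but a small gap at library 1 (log2 fold change -0.55, SE 0.23, edgeR adjusted p = 0.221). Fbn2 was at 920.5, 816 and 687 CPM in knockout libraries, against 953, 834 and 927 CPM in control libraries (log2 fold change -0.14, SE 0.23, edgeR adjusted p = 0.695). For Fbn2 the groups overlapped.

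Fbn1 and Fbln2 turned on which control was used. Fbn1 stood at 3349.6, 3126 and 2704 CPM in knockout libraries 1, 2 and 3, against 3114, 813 and 1077 CPM in control libraries 1, 2 and 3. Control library 1 thus lay within the knockout range, and controls 2 and 3 below it. The log2 fold change was 0.86 (SE 0.51, edgeR adjusted p = 0.319) with all controls, 1.77 without control library 1 (edgeR adjusted p = 0.0261) and -0.095 against control library 1 alone. Fbln2 stood at 1412, 799 and 603 CPM in knockout libraries, against 1296, 515 and 593 CPM in control libraries (log2 fold change 0.20, SE 0.45, edgeR adjusted p = 0.785), and its value against control library 1 alone was -0.55. Against that library the remaining 8 genes kept a negative log2 fold change, between -1.78 for Eln and -0.31 for Fbn2. With 1 control library, which is assumed to vary like the knockouts, 0 genes of the whole table were called with edgeR, so missing the threshold says nothing of these genes.

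None of the 38 tested related genes was called in the knockouts, beside 0.0368% of all genes tested. Of these 38, 13 had positive and 25 negative log2 fold changes. Mfap5 was at a mean of 4526 CPM in knockout and 1268 CPM in control libraries (log2 fold change 1.84, SE 0.45, edgeR adjusted p = 0.176). Lox was at 574 CPM in knockout and 369 CPM in control libraries (log2 fold change 0.64, edgeR adjusted p = 0.256), Loxl1 at 548 CPM in knockout and 839.5 CPM in control libraries (-0.61, edgeR adjusted p = 0.395), and Ltbp4 at 533 CPM in knockout and 835 CPM in control libraries (-0.65, edgeR adjusted p = 0.458).

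Fibroblast progenitor, cartilage, bone and tendon markers separated control library 1 from the other 2 controls, while erythroid markers did not. The fibroblast progenitor markers summed to 1771 to 2312 CPM in knockout libraries, against 2159, 433 and 544 CPM in control libraries 1, 2 and 3. Of these 5 markers, 3 were higher in every knockout library than in every control, where 29% of all genes tested did not overlap. Cd34 (log2 fold change 0.21) and Pi16 (-0.53) overlapped between the groups, so the sum does not hold for each marker. Cartilage markers summed to 242 to 417 CPM in knockout libraries, against 467, 5607 and 6678 CPM in the controls, and bone markers to 134 to 289 CPM in knockout libraries, against 90.2, 6177 and 5754 CPM in the controls. Tendon markers summed to 2240.1 to 2657 CPM in knockout libraries, against 1641, 3737 and 3542 CPM in control libraries 1, 2 and 3. Control library 1 thus lay below every knockout library in this sum, and controls 2 and 3 above every one. Erythroid markers summed to 87.8 to 143 CPM in knockout libraries, against 730, 715 and 943 CPM in control libraries 1, 2 and 3. The erythroid sum was thus lower in every knockout library than in every control. Mural markers summed to 156 to 212 CPM in knockout libraries, against 189.9, 300.04 and 257.5 CPM in control libraries 1, 2 and 3. In Fbn1, the libraries with high Ly6a and fibroblast progenitor sums, which were the 3 knockouts and control library 1, were the high ones, and the part of those cells in the Fbn1 values was not tested.

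The balance of the fibrillins was followed as a ratio within each library, which needs no scaling between libraries. Fbn2 counts were 1.27%, 1.04% and 0.908% of Fbn1 counts in adult libraries 1, 2 and 3, against 23.4%, 103% and 86.0% in perinatal libraries 1, 2 and 3. They were 24.6% and 20.8% in labelled Sca1-negative libraries 2 and 3, against 103% and 86.0% in labelled Sca1-positive libraries 2 and 3. They were 27.5%, 26.1% and 25.4% in knockout libraries, against 30.6%, 103% and 86.0% in control libraries 1, 2 and 3. In all 3 comparisons the groups did not overlap, but wild-type library 1 of both tables lay near the knockout and labelled Sca1-negative values and far from libraries 2 and 3 of its own group.

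As log2 ratios of counts with 0.5 added, the mean difference in Fbn2 over Fbn1 was -5.80 for adult against perinatal, -2.06 for labelled Sca1-negative against labelled Sca1-positive, and -1.30 for knockout against control. An exact two-sided permutation test gave p = 0.1, 0.3333 and 0.1, the smallest values that these group sizes allow. Against wild-type library 1 alone the knockout difference was -0.22 and the adult difference -4.46. The comparisons share wild-type libraries 2 and 3.

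Eln counts were 0.00624%, 0.0323% and 0.00789% of Fbn1 counts in adult libraries, with 0.5 added to each count, against 2.15%, 13.3% and 13.6% in perinatal libraries. They were 2.28% and 4.44% in labelled Sca1-negative libraries, against 13.3% and 13.6% in labelled Sca1-positive libraries. In knockout libraries they were 4.93%, 1.93% and 0.189%, against 7.77%, 13.3% and 13.6% in control libraries 1, 2 and 3. The mean log2 differences were -9.29, -2.08 and -3.21, with exact permutation p = 0.1, 0.3333 and 0.1. The adult value rests on counts of 0 and 1 and was -7.63 with 2 in place of 0.5 counts added. The knockout value was -1.86 without knockout library 3 and ran from -4.22 to -1.86 when each library was left out in turn. Knockout library 3 had the lowest Eln share of all perinatal and knockout libraries.

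**Figure D4:**
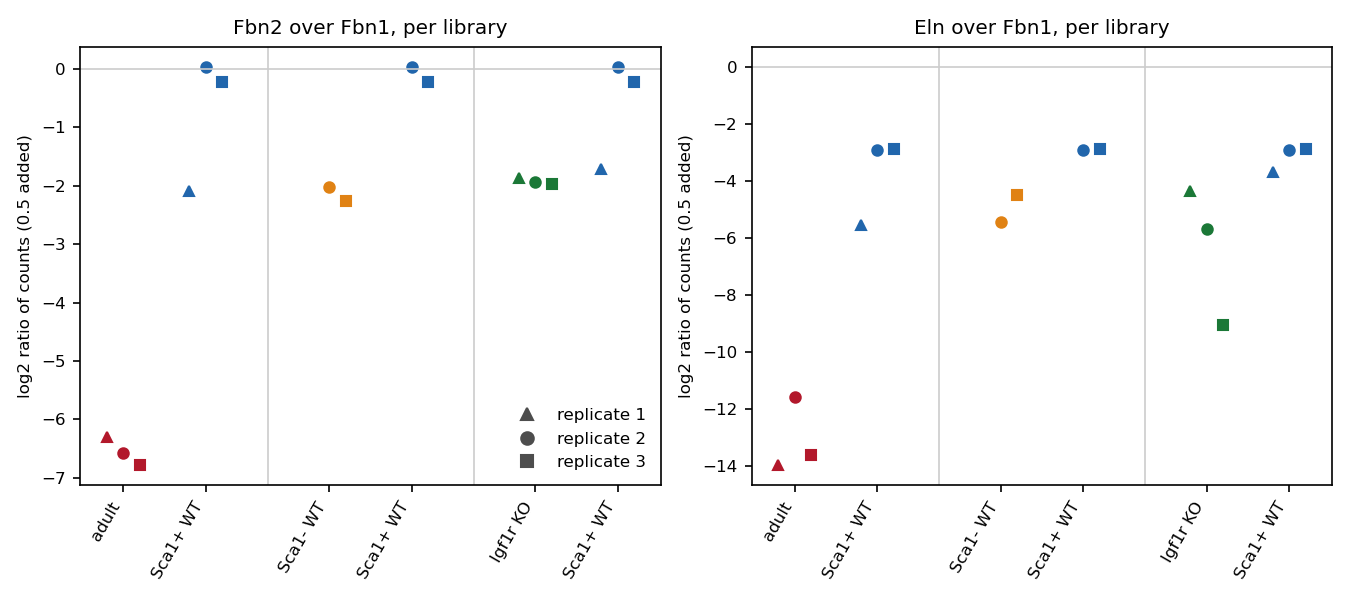
Log2 ratio of Fbn2 to Fbn1 counts (left) and of Eln to Fbn1 counts (right), with 0.5 added to each count, in every library of the age, Sca1 and knockout tables; marker shapes give the replicate and the horizontal line marks equal counts. Wild-type Sca1-positive libraries 2 and 3 lie near the line for the fibrillins, at 103% and 86.0%, while library 1 of that group lies with the knockouts, at 30.6% in the knockout table.

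Across the 6 libraries of the knockout table, the 10 genes fell into patterns that are described here without a test. Mfap2 and Fbln1 were the most alike pair, with a Pearson r of log2 CPM of 0.996, and Eln followed both, at 0.960 with Mfap2 and 0.966 with Fbln1. Mfap4 and Emilin1 were at 0.976. Fbn1 was most like Fbln2 among the 10 genes, at 0.783, and ran opposite to Fbln7, at -0.778. Of 4484 other genes ranked for likeness to Eln, the closest were Vps11, Glmp, Eif4g1, Gnai2 and Cavin1, with r from 0.997 to 0.999. For Fbn1 they were Prelp, Efemp1, Slco3a1, Mt2 and Rab32, with r from 0.994 to 0.995. These r values rest on 6 libraries that share scaling and groups, with knockout library 3 alone at the low end for Eln and control libraries 2 and 3 alone at the low end for Fbn1.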

How the data were processed

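PolyA RNA of sorted mouse marrow stromal cells was analysed from 3 deposited tables, each by itself. The submitters' processing notes name Trimmomatic 0.32, DESeq2 and the build mm10. Which aligner, annotation, counter and strand setting were used is not given in the sources used here. All 3 tables hold raw counts per gene deposited by the authors. TPM columns, the authors' values per the file headers, were used to compare levels between genes in the age and Sca1 tables. Group means in TPM were not tested. In the knockout table the 6 columns headed TPM are values on a log2 scale as deposited by the authors, with the transformation not stated, and were not used.

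CPM of a library is its counts divided by its total. Comparisons used edgeR 4.0.16 under R 4.3.3 (filterByExpr, TMM, robust glmQLFit, glmQLFTest, group as the only term), with Benjamini-Hochberg adjustment over all genes tested and calls at an adjusted p under 0.05. A standard error (SE) is the log2 fold change over the square root of F. Ratios were tested with exact permutation in scipy 1.17.1. The scripts were tested on simulated data. Alternatives were DESeq2 1.42.0, RLE factors, no filter, each library left out, a replicate block, 2 in place of 0.5 counts added to ratios, and wild-type library 1 alone. The last was chosen after seeing the data for the ratios. Positions are from GENCODE on the same assembly.

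The members, the 6 related gene lists and the 10 marker lists were chosen with earlier results of these data known. Named related genes were up to 4 called per list and comparison with the smallest adjusted p, or the 2 most abundant where none was called. Genes named by likeness were the 5 with the highest r among genes whose mean log2 CPM reached 5. Left out of that ranking were the 10 members and genes with names of the form Gm and a number, or ending in Rik or -ps.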

Additional observations from a re-analysis of the deposited data

How the results depend on the processing

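Counts of calls depended on the tool and on single libraries in the Sca1 and knockout comparisons. For labelled Sca1-negative against labelled Sca1-positive, 597 genes and 1 of the 10 members were called in edgeR, 1026 and 4 with DESeq2, and 1369 and 4 with a replicate block. Leaving out 1 library gave 484 to 4835 genes and 0 to 9 members (0 without labelled Sca1-positive library 2), with the most called without labelled Sca1-negative library 3 (2257 genes and 5 members without its library 2), and the lone library then left in a group is assumed to vary like the others. For the knockout, 5 genes and 0 members were called in edgeR, 967 and 3 with DESeq2, 0 and 0 with a replicate block, and 0 and 0 against control library 1 alone. Leaving out 1 library gave 0 to 3003 genes and 0 to 5 members: 3003 genes without knockout library 1, 306 genes and 2 members (Fbn1, Fbln7) without control library 1, and 0 genes without any of the other 4. For adult against perinatal, 10003 to 11548 genes and 9 to 10 members were called when 1 library was left out. The numbers were not shown to pair samples: deviations of same-numbered libraries correlated at -0.019, -0.0172 and 0.185 in the age table, 0.303 in the Sca1 table and 0.187, 0.118 and 0.0543 in the knockout table. Control library 1 of the knockout table takes its number from the sample title, while its column header carries another. The difference in log2 Fbn2 over Fbn1 was -4.46 (adult) and -0.22 (knockout) against wild-type library 1 alone. The adult difference in log2 Eln over Fbn1 was -7.63 with 2 counts added and -7.53 against library 1 alone. Signs turned for Fbn1 (-0.095) and Fbln2 (-0.55) in the knockouts against control library 1 alone. When 1 library was left out, they turned for Fbln2 in the knockouts (-0.15 to 0.81) and, in the Sca1 comparison, for Eln (-1.12 to 0.36) and Fbln5 (-0.37 to 0.063). Of the 110 adult member values under the alternatives, 106 kept direction and side of the threshold, and the 4 exceptions were Fbln2 passing it. In the Sca1 comparison 58 member values kept both, 18 passed the threshold anew, 1 lost it (Fbn1) and 3 turned sign. In the knockout 96 kept both, 10 passed anew and 4 turned sign. The knockout difference in log2 Eln over Fbn1 ran from -4.22 to -1.86 when 1 library was left out. The cause of these changes was not tested. In adult cells, 1 count of Eln and 2 of Mfap4 limit how far their differences can be sized.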

Other observations

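The labels give the wild-type Sca1-positive sample numbered 1 a separate library in each of the age and knockout tables. Whether both libraries came from 1 sample was not tested. The elastic fibre genes differed between these 2 libraries. Eln stood at 57.6 CPM in the age table and 242 CPM in the knockout table. Mfap2 stood at 2213 CPM in the age table and 4325 CPM in the knockout table, and Emilin1 at 227 CPM in the age table and 464 CPM in the knockout table. Fbn1 was closer, at 2679.8 CPM in the age table and 3114 CPM in the knockout table. Each is a single library, so these differences have no replicate check.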
